A study of Homo sapiens with 3 samples.

Results

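To see which gene starts carried short stretches of EZH2 without PHF13, 7672 of the 21639 peaks in the EZH2 list of PANC-1 cells were examined. PANC-1 is an established line of human pancreatic ductal carcinoma. The peaks came from chromatin immunoprecipitation and sequencing (ChIP-seq), with 1 library each for EZH2, for PHF13 and for input chromatin of wild-type cells for which no treatment is listed. Chromatin was fixed with EGS, which joins proteins to each other, before formaldehyde. Peaks were selected on 3 of their own properties, namely a width of at most 1000 bp, no base shared with any of the 19039 PHF13 peaks, and a summit within 5000 bp of the transcription start site (TSS) of any annotated transcript. Of the EZH2 list, 19980 peaks were narrow enough, 17875 of these shared no base with PHF13, and 7672 (35.5%, 95% Wilson interval 34.8 to 36.1) also lay near a TSS. They are called gene-start peaks here. Other EZH2 peaks served for comparison, namely 1537 EZH2-only peaks over 1000 bp wide, 10203 EZH2-only narrow peaks farther from a TSS, and 695 narrow peaks near a TSS that shared bases with PHF13. With 1 library per antibody there was no spread between replicates, no p-value is given, and every interval covers counting error only.

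EZH2 is the catalytic subunit of Polycomb repressive complex 2 (PRC2), which methylates lysine 27 of histone H3. In mammals, PRC2 is known to gather at CpG islands, stretches of DNA that keep their CpG dinucleotides, when the genes there are silent, and transcription factors of development and ion channels of neurons are classical targets. Bodies of active genes and distal DNA are mostly CpG-poor, because methylated CpG is lost over evolution. PHF13 is a PHD-finger protein that reads methylated histone H3 and was mapped in the same cells to learn where both proteins sit.

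The sequence under the summits of gene-start peaks ranged from CpG-rich to CpG-poor. Each run is 200 bp of the plus strand of GRCh37 (hg19) centred on a summit, with every CpG in capitals. The first set is shown because these peaks were among the 10 single-copy gene-start peaks with the highest fold enrichment at protein-coding genes, and the 4 shown are those whose 200 bp hold no annotated UTR. DAB2IP encodes a RAS GTPase-activating protein (chr9:124498498-124498697, in an intron). TMEFF1 encodes a transmembrane protein with follistatin modules (chr9:103236073-103236272, in an intron). LCORL encodes a nuclear receptor corepressor-like factor (chr4:18024193-18024392, upstream of the gene). ANXA3 encodes an annexin, a calcium-dependent phospholipid-binding protein (chr4:79472617-79472816, upstream of the gene).
DAB2IP: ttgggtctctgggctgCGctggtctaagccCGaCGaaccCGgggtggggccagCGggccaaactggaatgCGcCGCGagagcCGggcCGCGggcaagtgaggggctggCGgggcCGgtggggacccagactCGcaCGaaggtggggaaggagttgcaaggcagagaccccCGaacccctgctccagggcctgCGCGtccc
TMEFF1: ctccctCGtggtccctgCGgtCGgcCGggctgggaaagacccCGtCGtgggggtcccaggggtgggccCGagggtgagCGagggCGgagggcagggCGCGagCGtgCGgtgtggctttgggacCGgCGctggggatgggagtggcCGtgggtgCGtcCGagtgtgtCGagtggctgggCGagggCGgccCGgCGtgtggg
LCORL: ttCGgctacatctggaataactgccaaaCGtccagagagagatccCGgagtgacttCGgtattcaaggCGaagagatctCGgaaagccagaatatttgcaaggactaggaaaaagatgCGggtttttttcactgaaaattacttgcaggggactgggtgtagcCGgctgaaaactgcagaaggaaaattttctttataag
ANXA3: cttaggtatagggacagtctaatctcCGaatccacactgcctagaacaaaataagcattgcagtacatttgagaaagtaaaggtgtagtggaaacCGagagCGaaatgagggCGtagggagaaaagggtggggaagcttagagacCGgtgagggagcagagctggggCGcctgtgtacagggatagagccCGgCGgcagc

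Between 8 and 23 CpG stood in each of these 4 runs, with 23 at TMEFF1 and 8 at both LCORL and ANXA3. GC content was 76% at TMEFF1 but only 44.5% at LCORL. The second set is shown because these had the highest fold enrichment among single-copy gene-start peaks at protein-coding genes with a CpG ratio under 0.4. FRG1 is named for facioscapulohumeral dystrophy (chr4:190883855-190884054, in an intron), C6orf58 encodes a secreted protein (chr6:127845381-127845580, in an intron), and the last run lies upstream of LCORL again (chr4:18024815-18025014).
FRG1: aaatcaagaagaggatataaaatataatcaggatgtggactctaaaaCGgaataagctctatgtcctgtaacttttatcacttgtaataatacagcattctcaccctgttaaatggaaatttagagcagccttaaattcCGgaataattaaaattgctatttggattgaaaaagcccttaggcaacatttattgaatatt
C6orf58: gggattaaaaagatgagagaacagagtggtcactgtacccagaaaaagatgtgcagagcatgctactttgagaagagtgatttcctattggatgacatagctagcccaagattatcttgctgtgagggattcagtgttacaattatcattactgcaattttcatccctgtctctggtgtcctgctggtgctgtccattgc
LCORL: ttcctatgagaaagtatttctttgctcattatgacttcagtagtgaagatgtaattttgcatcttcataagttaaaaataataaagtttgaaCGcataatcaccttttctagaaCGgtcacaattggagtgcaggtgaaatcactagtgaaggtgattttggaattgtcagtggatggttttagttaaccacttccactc

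Only 0 to 2 CpG stood in each of these 3 runs, none of them at C6orf58. The LCORL pair differed in CpG although only 273 bp separated the peaks. Over 500 bp the CpG ratio was 0.798 for one and 0.270 for the other, with 36 and 30 fragments at the summit.

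The CpG observed/expected ratio, which is the number of CpG found over the number that the C and G content predicts, was then measured over 500 bp at every summit. The median over the gene-start peaks was 0.342, and the tenth and ninetieth percentiles were 0.112 and 0.839. A ratio of at least 0.6, here CpG-rich, was found for 2212 of 7671 readable peaks (28.8%, interval 27.8 to 29.9). A ratio under 0.4, here CpG-poor, was found for 4324 (56.4%, interval 55.3 to 57.5), and 1135 lay between. EZH2-only narrow peaks farther from a TSS were CpG-rich in 404 of 10202 cases (3.96%), so the odds were 9.83 times higher for gene-start peaks (exact interval 8.79 to 11.01). Wide EZH2-only peaks were CpG-rich in 1397 of 1537 cases (90.9%), and against these the odds ratio was 0.0406 (interval 0.0337 to 0.0487). Narrow peaks near a TSS that shared bases with PHF13 held a similar mix, with 170 of 694 CpG-rich (24.5%, odds ratio 1.25, interval 1.04 to 1.504) and 387 CpG-poor (55.8%). The sequence near gene starts is itself richer in CpG: 4.74% of all 500-bp windows within 5 kb of a TSS reached 0.6, and 1.25% of the windows farther away.

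**Figure D1:**
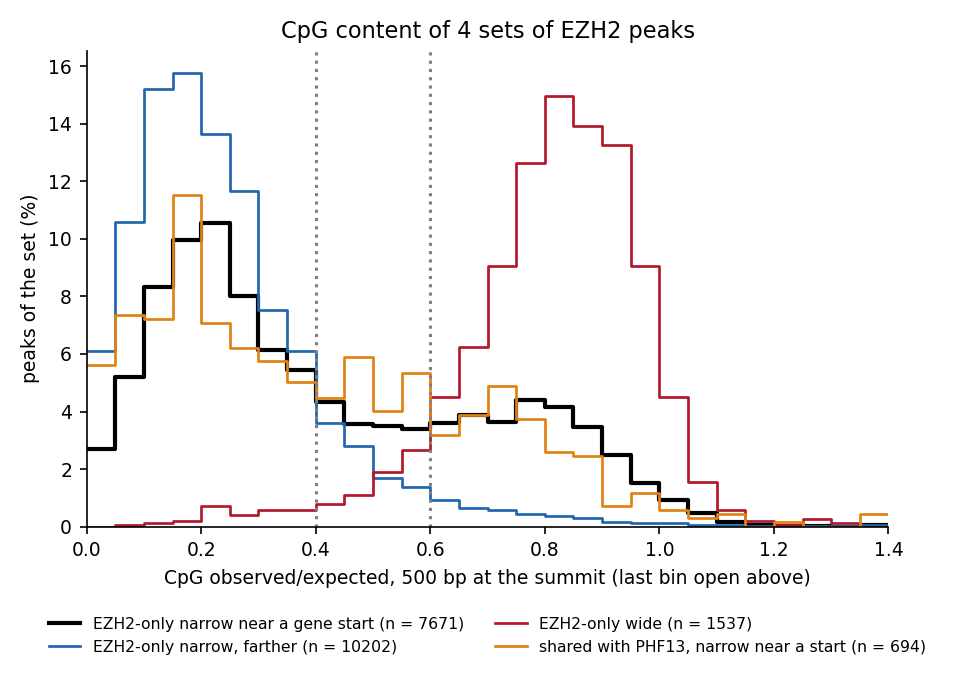
Share of peaks (%) by CpG observed/expected ratio in bins of 0.05 for the gene-start peaks (black, n = 7671) and 3 other sets of EZH2 peaks; dotted lines mark 0.4 and 0.6. The black line has a main mode at low ratios, like the narrow peaks farther away, and a broad shoulder above 0.6, where the wide peaks lie.

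Relative to the windows available, CpG-rich sequence was the more often occupied. Within 5 kb of a TSS, 30.3 gene-start peaks were found per 1000 CpG-rich windows and 3.32 per 1000 CpG-poor windows. Farther away, EZH2-only narrow peaks numbered 7.76 per 1000 CpG-rich windows and 2.28 per 1000 CpG-poor windows. Within the selected distance the CpG-rich rate was lower away from the TSS, going from 38.4 per 1000 CpG-rich windows under 250 bp and 39.7 at 250 to 499 bp to 18.6 at 1000 to 1999 bp, 10.8 at 3000 to 3999 bp and 15.2 at 4000 to 5000 bp. The CpG-poor rate moved less, from 4.30 per 1000 CpG-poor windows under 250 bp to 2.69 in the outermost bin. These rates are descriptions, since distance to a TSS was part of the selection.

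Position around the TSS showed the same split. Of all gene-start peaks, 3924 (51.1%, interval 50.03 to 52.3) lay within 1 kb of a TSS, where 27.9% of the sequence within 5 kb lies. Density was 28.4 peaks per Mb in the first 250 bp downstream of a TSS and 21.5 per Mb in the 250 bp upstream, against 6.05 per Mb at 4000 to 5000 bp upstream. CpG-rich peaks made most of this rise, from 0.438 per Mb at 4000 to 5000 bp upstream to 18.8 per Mb in the first 250 bp downstream. CpG-poor peaks ran nearly flat, with 5.01 per Mb at 4000 to 5000 bp upstream, 5.90 in the first 250 bp downstream and a highest value of 7.45 at 500 to 1000 bp downstream. Within 1 kb, the summit lay downstream of the TSS in 1173 of 1841 CpG-rich peaks (63.7%) and in 752 of 1404 CpG-poor peaks (53.6%), an odds ratio of 1.52 (interval 1.32 to 1.76).

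**Figure D2:**
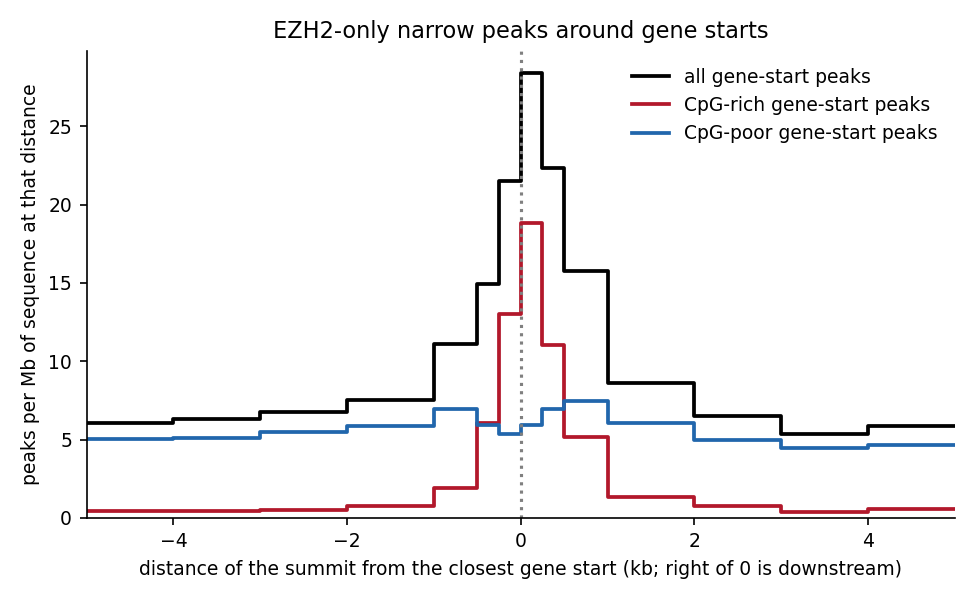
Gene-start peaks per Mb of sequence against the signed distance (kb) of the summit from the closest TSS, for all (black), CpG-rich (red) and CpG-poor peaks (blue). The red line climbs to 18.8 per Mb just downstream of the TSS, while the blue line stays between 4.47 and 7.45 per Mb.

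The CpG-rich peaks were wider and were called from more fragments, as the heights recovered from fold enrichment and p showed. Fold enrichment is the ChIP pileup at the summit over the local background, each plus 1, as MACS2 gives it. A median CpG-rich peak was 347 bp wide, with 32 fragments over a background of 9.23, a 3.19-fold enrichment and a −log10 q of 5.48. A median CpG-poor peak was 196 bp wide, with 23 fragments over a background of 6.81, a 2.998-fold enrichment and a −log10 q of 3.50. The −log10 q was 5 or more in 1231 CpG-rich peaks (55.7%) and in 894 CpG-poor peaks (20.7%). Fold enrichment thus differed less than width and fragment number did, and the background was higher at CpG-rich sites as well. Over all gene-start peaks the width ran from 150 to 1000 bp (median 222), fold enrichment from 1.347 to 11.5 (median 3.04) and the pileup from 13 to 203 fragments (median 26). Width, fold enrichment and q are given as descriptions, because the selection used the peak calls.

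**Figure D3:**
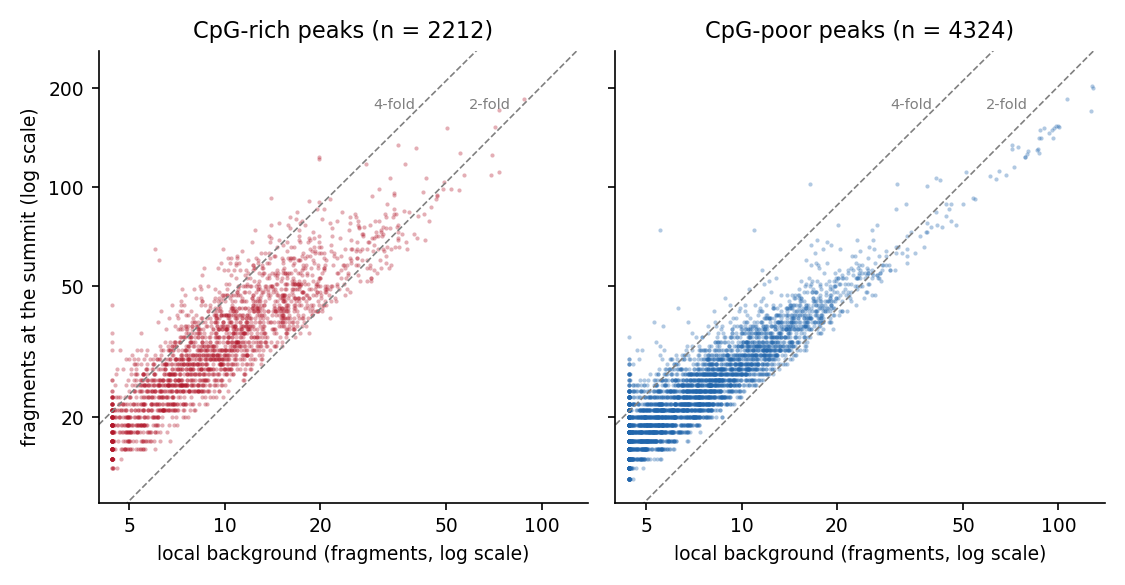
Fragments at the summit against local background (both log scales) for CpG-rich (left) and CpG-poor (right) gene-start peaks; dashed lines mark a fold enrichment of 2 and 4. Both clouds follow the same band, and the column at the left edge holds the peaks whose background was at its floor of 4.42 fragments.

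Width and CpG content moved together through the whole range. Of the 3138 gene-start peaks of 150 to 199 bp, 15.2% were CpG-rich and the median lay 1480 bp from a TSS. Of the 322 peaks of 800 to 1000 bp, 79.2% were CpG-rich and the median lay 250.5 bp from a TSS. The narrowest class held 40.9% of all gene-start peaks, and its median summit held 23 fragments over a background of 6.38. The background was at the genome-wide floor in 879 peaks (11.5%), in 5.42% of the CpG-rich and 15.4% of the CpG-poor peaks.

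Some gene-start peaks lay in sequence that occurs more than once in the genome. A peak was called multi-copy when the median 24-mer in the 100 bp at its summit occurred more than once. This applied to 1874 of 7671 gene-start peaks (24.4%) and to 551 of 694 narrow peaks near a TSS that shared bases with PHF13 (79.4%), an odds ratio of 0.0839 (interval 0.0688 to 0.102). Narrow EZH2-only peaks farther from a TSS were multi-copy in 30.6% of cases (odds ratio 0.732, interval 0.684 to 0.783) and wide peaks in 3.19% (odds ratio 9.82, interval 7.35 to 13.4), so the gene-start peaks lay above the wide peaks and below the other 2 sets. Among gene-start peaks it applied to 223 CpG-rich peaks (10.1%) and to 1331 CpG-poor peaks (30.8%), an odds ratio of 0.252 (interval 0.215 to 0.294). No filter on mapping quality is stated for these lists, and the part of multiply mapping reads in the multi-copy peaks was not tested. The highest fold enrichment of any single-copy gene-start peak was 11.5, at HLA-DRB6, a pseudogene of the HLA class II region. This intronic peak (chr6:32526263-32526786), picked out after its values were seen, had 74 fragments over 5.53 and a −log10 q of 51.2. It was CpG-poor over 500 bp, with a ratio of 0.322. The HLA class II region differs between haplotypes, and the copy number of this site in PANC-1 was not tested.

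The genes next to these peaks were of several types. The closest TSS belonged to a protein-coding gene in 4345 cases (56.6%, interval 55.5 to 57.7), and 66.3% of all annotated starts are protein-coding. Long non-coding RNA genes were closest in 1669 cases (21.8%, against 21.5% of starts) and pseudogenes in 1174 cases (15.3%, against 7.55%). A share of starts is not a share of sequence, so no excess or deficit is read from these values. By sequence, 445.3 of the 769.7 Mb within 5 kb of any TSS lie within 5 kb of a protein-coding TSS. Of the gene-start peaks, 4831 (63.0%) lay that close to one. Of the peaks closest to a pseudogene, 52.9% were multi-copy, compared with 14.0% of those closest to a protein-coding gene. The summit fell in an exon in 1884 cases (24.6%), in an intron in 3889 (50.7%) and between genes in 1899 (24.8%). Exonic summits made up 43.7% of the CpG-rich peaks and 15.4% of the CpG-poor peaks.

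The single-copy peaks with the highest values at protein-coding genes were CpG-rich without exception among the 10 ranked by fold enrichment and the 10 ranked by q. By fold enrichment, PTPRD, which encodes a receptor tyrosine phosphatase, came first, with 34 fragments over a background of 4.42, a 6.46-fold enrichment and a −log10 q of 15.5 at 43 bp downstream of the TSS. DAB2IP was next with a fold enrichment of 5.99 (49 fragments over 7.35) at 832 bp upstream. Between 5.53 and 5.81 lay TMEFF1, RGS7, which encodes a regulator of G protein signalling, LCORL, ETNPPL, which encodes ethanolamine-phosphate phospho-lyase, ANXA3, SCUBE3, which encodes a secreted EGF-domain glycoprotein, the zinc finger gene ZNF467 and C2orf88. These 10 peaks were 409 to 994 bp wide.

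Ranking by q moved other genes to the front, since q grows with the number of fragments. SCUBE3 led with 74 fragments over 12.5 and a −log10 q of 28.2. SATB1, which encodes a chromatin organiser, had 84 fragments over 16.95 and a −log10 q of 27.0. ABCC8, which encodes the sulfonylurea receptor of pancreatic beta cells, had 90 fragments over 19.8 and a −log10 q of 26.4, with the summit in coding sequence 20 bp downstream of the TSS. The axon guidance gene SEMA6D had 81 fragments over 16.1 and a −log10 q of 26.4. HOXA3, a homeobox gene of the HOXA cluster, had the highest pileup of these 10, 151 fragments over a background of 50.1, but a fold enrichment of only 2.97. LEF1, a transcription factor of the WNT pathway, had 132 fragments over 40.3 and a fold enrichment of 3.22. EBF1, a factor of B cell development, had 92 fragments over 21.5, and its peak ended 570 bp from a PHF13 peak. P2RX2, which encodes an ATP-gated channel, SBSPON and C2orf88 had −log10 q values of 24.5, 23.2 and 23.2. Only SCUBE3 and C2orf88, 2 genes, were in both rankings of 10.

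Peaks were also read on both sides of each limit of the selection. The 3 widest peaks inside the limit were at KBTBD12 (1000 bp, fold enrichment 3.63), FAM124A (997 bp, 4.32) and SPTBN4 (997 bp, 4.37). Just outside were RASGEF1B (1001 bp, 4.70), TP73 (1002 bp, 3.94) and AVPR1A (1002 bp, 4.37), and all 6 lay within 362 bp of a TSS with CpG ratios of 0.741 to 1.057. The 151 EZH2-only peaks of 901 to 1000 bp near a TSS were CpG-rich in 81.5% of cases, and the 151 peaks of 1001 to 1100 bp in 91.4%. At the distance limit, the last peaks inside were at LINC01682, PRKACB and RPL13AP13 (5000, 5000 and 4999 bp, fold enrichment 2.50, 3.14 and 3.32). The first outside were at SNRPEP10, MAGI2 and DRAIC (5002, 5004 and 5004 bp, fold enrichment 3.50, 3.69 and 2.396). At the PHF13 limit, gene-start peaks at SLC8A1 and at the uncharacterised gene ENSG00000287338 touched a PHF13 peak with a gap of 0 bp, and one at RNA5SP373 had a gap of 2 bp. Peaks at DEF6, XXyac-YX155B6.2 and SLC9C1 were left out for sharing 2, 4 and 7 bases.

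To find out how gene-start peaks relate to each other, the distance between peaks was measured. Another EZH2 peak of any kind lay within 1000 bp of 2500 gene-start peaks (32.6%, interval 31.5 to 33.6). That share was 51.7% for CpG-rich and 19.4% for CpG-poor peaks. A wide EZH2 peak lay within 5 kb of 485 (6.32%, interval 5.80 to 6.89), 9.45% of the CpG-rich and 3.68% of the CpG-poor peaks. With a width limit of 500 bp that share was 13.7%, since peaks over 500 bp then count as wide. The peaks beside a wide peak had a median of 48 fragments over a background of 19.7 and a fold enrichment of 2.34. The other gene-start peaks had 25 fragments over 7.35 and a fold enrichment of 3.08. Peaks beside a wide peak thus had more fragments, a higher background and a lower fold enrichment.

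The nearest PHF13 peak was at a median of 45082 bp from a gene-start peak and at 45117 bp from a narrow EZH2-only peak farther from a TSS. A PHF13 peak lay within 5 kb of 942 gene-start peaks (12.3%), 1104 of the narrow peaks farther away (10.8%) and 57 of the wide peaks (3.71%). Among gene-start peaks, 10.2% of the CpG-rich and 13.5% of the CpG-poor had such a PHF13 neighbour. These shares are descriptions, because every set here was selected to share no base with a PHF13 peak. The sets also differed in width, with medians of 222 bp for gene-start peaks, 194 bp for the narrow peaks farther away and 1501 bp for the wide peaks. No direction is read from these shares.

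Seen from the genes, 3759 of 20163 protein-coding genes (18.6%, interval 18.1 to 19.2) had a gene-start peak no farther than 5 kb from any of their TSSs. A wide EZH2-only peak was found at 1351 genes (6.7%), and 540 genes had both. One gene-start peak was found at 2663 genes, 2 at 797 and 3 or more at 299. The count depends on how many starts a gene has. Genes with 1 annotated TSS had a gene-start peak in 15.3% of cases and genes with 16 or more in 23.7%, and with 1 start per gene the total was 2793 genes (13.9%). Promoters of genes with a gene-start peak were CpG-rich in 67.4% of cases. Promoters of genes without any EZH2 peak were CpG-rich in 66.0%, an odds ratio of 1.07 (interval 0.990 to 1.15), and those of genes with only wide peaks among these 2 kinds in 85.1% (odds ratio 0.363, interval 0.293 to 0.447).

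PDE4DIP, which encodes a Golgi and centrosome scaffold, had the most gene-start peaks, 8, spread over 58 annotated starts, and 5 of them were multi-copy. KALRN, which encodes a guanine nucleotide exchange factor, had 7 peaks at fold enrichments of 2.19 to 2.96, all single-copy and none CpG-rich. SHANK1, which encodes a postsynaptic scaffold, had 7 with only 7 annotated starts, 4 of them CpG-rich. GRAMD1B and PDE2A had 6 each, as did 3 other genes. GATA6, a transcription factor of the pancreas chosen here after its values were seen, had 5 CpG-rich peaks of fold enrichment 1.81 to 2.37 around only 2 starts. The 5 peaks of GATA6 lay within chr18:19745532-19748600, whereas those of KALRN were spread over chr3:123796241-124304913.

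Gene families were then compared by the share of genes with a gene-start peak, beside 18.6% over all protein-coding genes. The families were chosen with earlier results of these lists known, so that the shares are descriptions. Ion channels stood high, with 44 of 95 potassium channel genes (46.3%, interval 36.6 to 56.3) and 21 of 40 sodium and calcium channel genes (52.5%, interval 37.5 to 67.1). KCNN1, a calcium-activated potassium channel, had 44 fragments over 8.41 and a fold enrichment of 4.78 at 1 bp from its TSS. KCNA7 had a fold enrichment of 4.18. SCN9A, a sodium channel of sensory neurons, had a fold enrichment of 5.05 at 2 bp from its TSS, whereas CACNA2D3 reached the higher −log10 q of 18.6 with 99 fragments over 30.6. Wide peaks were found at 28.4% of the potassium channels and at 8 of the 40 sodium and calcium channels, beside 6.7% of all genes.

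Other genes of the nervous system and of guidance were above the share over all genes too. Glutamate and GABA receptors had gene-start peaks at 14 of 47 genes (29.8%, interval 18.7 to 43.98). GRIN2A, which encodes a subunit of the NMDA receptor, had 70 fragments over 14.0 and a −log10 q of 22.5, and GRIK5 had a −log10 q of 12.4. Axon guidance ligands and receptors had them at 27 of 69 genes (39.1%, interval 28.5 to 50.9). SEMA6D and UNC5B led this family, and the third, ROBO2, had a CpG-poor peak (ratio 0.236) at 107 bp upstream of its TSS with 43 fragments over 9.87. Wide peaks were found at 21.3% of the glutamate and GABA receptors and 27.5% of the axon guidance genes, beside 6.7% of all genes. Clustered protocadherins were close to the share over all genes, with 11 of 53 (20.8%, interval 12.005 to 33.5) and no wide peak. Their leading peaks, at PCDHB1 and at PCDHGA9 and PCDHGB5, which share 1 peak, had only 26 and 20 fragments.

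Transcription factors of development followed. Homeobox genes of the LIM, NKX, IRX and SIX-type families had gene-start peaks at 16 of 38 genes (42.1%, interval 27.9 to 57.8), with NKX2-3 at 79 fragments over 22.7, NKX6-1 at 39 over 9.39 and LHX9 at 81 over 34.1. The peak at NKX2-3 ended 28 bp from a PHF13 peak. SOX, PAX and T-box factors had them at 17 of 44 genes (38.6%, interval 25.7 to 53.4), led by TBX15 (fold enrichment 4.75), PAX6 (3.13) and TBX2 (3.99). Genes with a FOX symbol had them at 19 of 53 (35.8%, interval 24.3 to 49.3). They were led by FOXN3 (fold enrichment 4.24) and by 1 peak that counts for both FOXL2 and FOXL2NB (3.47). FOXL2NB is counted here although it is a neighbour of FOXL2 and not a FOX factor. HOX genes, which set position along the body axis, had them at 11 of 39 (28.2%, interval 16.5 to 43.8), led by HOXA3, HOXD3 and HOXA13. The interval of the HOX genes included the share over all genes. Gene-start peaks of these 4 families were CpG-rich in 65.2%, 69.0%, 70.6% and 50% of cases, in the order given, compared with 38.2% of the 4831 gene-start peaks near any protein-coding gene. Their median fold enrichment was lower, 2.43, 2.42, 2.92 and 2.61, beside 3.04 for those 4831 peaks. Wide peaks were found at 39.5%, 22.7%, 15.1% and 10.3% of the genes of these families, beside 6.7% of all genes.

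Factors of the pancreatic lineage had gene-start peaks at 14 of 27 genes (51.9%, interval 34.0 to 69.3) and wide peaks at 11 (40.7%), with 6 genes having both. PAX6, needed for islet cells, had 83 fragments over 25.8. NR5A2, a nuclear receptor of acinar cells, had 51 over 11.2, and NEUROD1, an islet factor, 46 over 11.3. The median fold enrichment of the gene-start peaks in this list was 2.39, beside 3.04 near any protein-coding gene. No TSS of these 14 genes, or of the 17 SOX, PAX and T-box genes above, which also include PAX6, had a PHF13 peak within 5 kb. Over all genes, 4193 (20.8%) had one, as did 825 of the 3759 genes with a gene-start peak. In the whole lists, 3 of the 27 pancreatic factors and 5 of the 44 SOX, PAX and T-box factors had one. With a gene-start peak, so had 2 of 16 LIM, NKX, IRX and SIX-type genes, 2 of 19 FOX and 2 of 11 HOX genes. The selection left out every EZH2 peak that shared a base with PHF13, so no direction is read from these counts.

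Signalling and matrix genes were mixed. WNT ligands, Frizzled receptors and their secreted antagonists had gene-start peaks at 18 of 37 genes (48.6%, interval 33.4 to 64.1), led by WNT11 with 89 fragments over 32.6, SFRP1 with 30 over 4.98 and FZD3 with 38 over 8.18. Collagens had them at 17 of 44 (38.6%, interval 25.7 to 53.4), but only 29.6% of the peaks were CpG-rich. The leading collagen peaks were at COL6A2 and COL5A3, both CpG-rich, and at COL4A2, which was CpG-poor and multi-copy. TGF-beta ligands, receptors and SMADs had them at 7 of 29 (24.1%, interval 12.2 to 42.1), with BMPR1B, SMAD6 and TGFBR3 in front. MMP, ADAMTS and TIMP genes had them at 9 of 47 (19.1%, interval 10.4 to 32.5), led by MMP28, ADAMTS3 and TIMP3. Of 6 transcription factors of epithelial to mesenchymal transition, ZEB2 and SNAI2, 2 genes (33.3%, interval 9.68 to 70.0), had gene-start peaks, with 62 fragments over 23.2 and 31 over 7.26. Wide peaks were found at 29.7% of the WNT group, 31.8% of the collagens, 27.6% of the TGF-beta group and 19.1% of the MMP group. None of the 6 transition factors had one, beside 6.7% of all genes.

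Genes that every cell uses, and several large clusters, were below the share over all genes. Ribosomal protein genes had gene-start peaks at 2 of 89 (2.25%, interval 0.618 to 7.83), RPL7 and RPS16. Proteasome subunits had 1 of 40 (2.50%), PSMB2, and NDUF genes of the respiratory chain 3 of 48 (6.25%), namely NDUFA4L2 and, through 1 shared multi-copy peak, NDUFC2 and the read-through NDUFC2-KCTD14. The peak at PSMB2 lay 4690 bp upstream and was CpG-poor. Histone genes had them at 3 of 69 (4.35%, interval 1.49 to 12.02), H2BC26, H1-7 and H1-8. ZNF zinc finger genes had them at 53 of 515 (10.3%, interval 7.95 to 13.2) and olfactory receptors at 31 of 415 (7.47%, interval 5.31 to 10.4). Promoters were CpG-rich in 97.8% of the ribosomal protein genes and 79.6% of the ZNF genes, but in 2.17% of the olfactory receptor genes. A low share of gene-start peaks was therefore seen in families with CpG-rich and with CpG-poor promoters. Keratins, with 10 of 55 (18.2%), were at the share over all genes, and their leading peak, at KRT77, was CpG-rich, unlike those at KRT78 and KRT6B. PRC2 subunits had gene-start peaks at 2 of 14 (14.3%, interval 4.01 to 39.9), JARID2 and EED, with 25 and 26 fragments. The interval of the PRC2 subunits included the share over all genes.

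**Figure D4:**
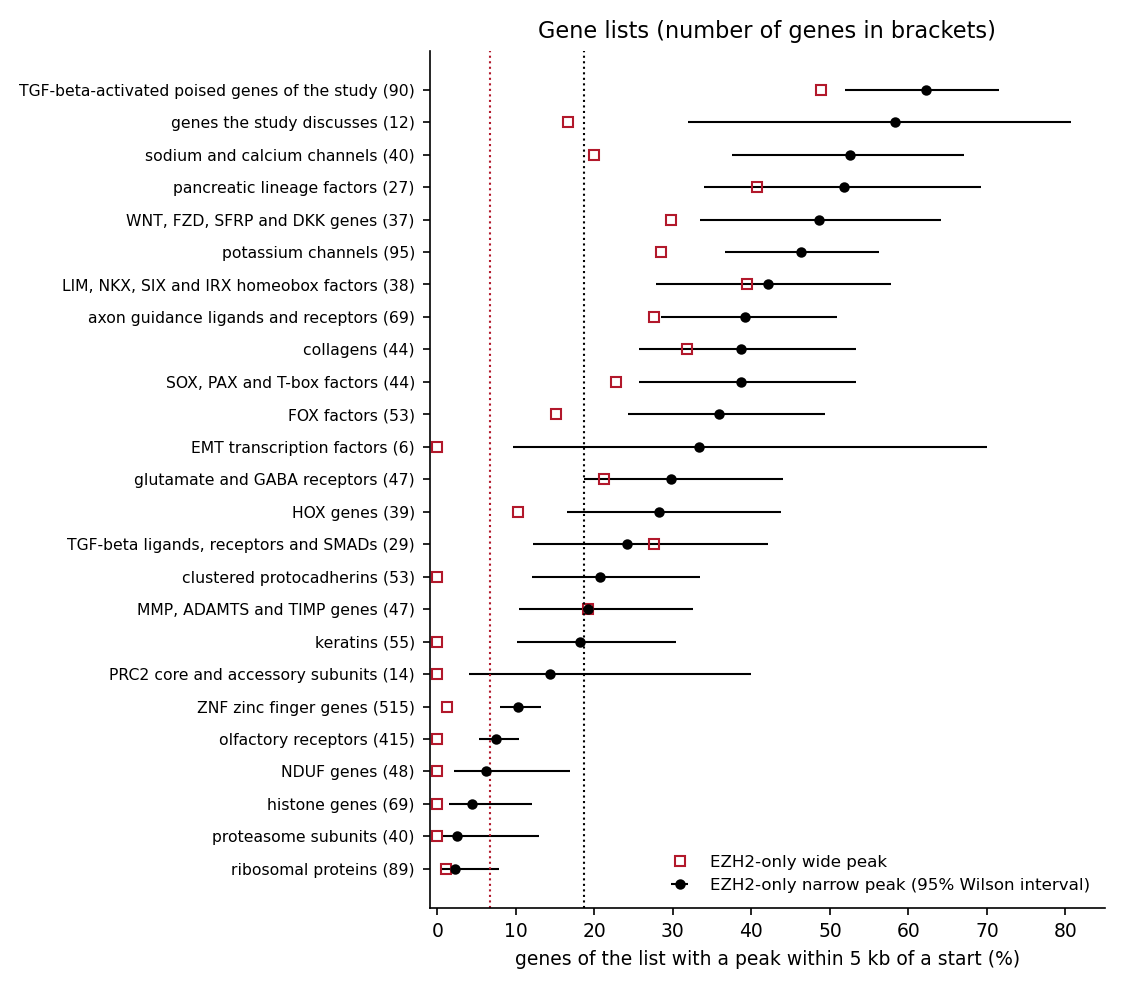
Share of genes (%) with a gene-start peak (black points with 95% Wilson intervals) and with a wide EZH2-only peak (red squares) within 5 kb of a TSS in 25 gene lists; dotted lines mark the shares over all protein-coding genes, 18.6% and 6.7%. Channel, WNT and developmental lists lie to the right of the black line and ribosomal, proteasome and histone genes to its left.

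Of the 90 genes that the study listed as poised and activated by TGF-beta, 56 had a gene-start peak (62.2%, interval 51.9 to 71.5). Over all protein-coding genes that share was 18.6%. A wide peak was found at 44 of the 90 (48.9%, beside 6.7% of all genes), and 24 had both. Counting 1 start per gene lowered the gene-start share to 45.6%, beside 13.9% of all genes. With both peak lists cut at a −log10 q of at least 5, the gene-start share was 28.9%, beside 7.96% of all genes. The study chose that list by chromatin state and expression in the same cell line, so it is no independent sample. DRAXIN, OLFM2 and RPS6KA2 had the highest q in it, with 71 fragments over 17.1, 53 over 9.75 and 81 over 26.0. Of 12 genes that the study discusses, 7 had a gene-start peak (58.3%, interval 32.0 to 80.7), beside 18.6% over all genes. That share stayed at 58.3% when 1 start per gene was counted. With both lists cut at a −log10 q of at least 5, 3 of the 12 had such a peak (25%), beside 7.96% of all genes. That cut also dropped weaker PHF13 peaks, so EZH2 peaks that shared bases only with those then counted. Of the 7 genes, only CDH1 and SOX9 had a selected peak that reached 5 itself (−log10 q of 10.8 and 6.68). CDH1, which encodes E-cadherin, had 34 fragments over 6.46 (fold enrichment 4.69) at 297 bp downstream of its TSS. SOX9 had 25 over 5.31, and CDH2, which encodes N-cadherin, 23 over 5.66. PCDHB8, MMP9, MMP17 and MMP2 had fold enrichments between 2.78 and 3.18 and −log10 q values between 2.09 and 4.72, and the PCDHB8 peak ended 188 bp from a PHF13 peak.

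PHF13 at the genes themselves can only be described, because the selection left out every EZH2 peak that shared a base with PHF13, and genes without an EZH2 peak met no such filter. Of the genes with a gene-start peak, 825 of 3759 had PHF13 within 5 kb of a TSS (21.9%, interval 20.7 to 23.3), as had 3135 of 15439 genes without an EZH2 peak (20.3%). Where the promoter was CpG-rich, the shares were 23.7% and 24.95%. Where it was not, they were 18.3% (224 of 1224 genes) and 11.3% (594 of 5256 genes). Genes with a wide peak and no gene-start peak had PHF13 in 79 of 811 cases (9.74%). With 1 start per gene the odds ratio against genes without an EZH2 peak went from 1.10 to 0.701, and no direction is read from it.

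Promoter sequence was searched for 11 short motifs on both strands in 2535 CpG-rich promoters of genes with a gene-start peak and 10183 CpG-rich promoters of genes without an EZH2 peak. A promoter was 250 bp before to 50 bp after 1 start per gene, so a peak could lie outside it. CCGGAAG, an ETS site, was found in 9.66% and 22.6% of the promoters (odds ratio 0.367, interval 0.318 to 0.422), and in 19.1% of all CpG-rich promoters. AAGATGGC, a YY1 site, was found in 2.41% and 6.49% (odds ratio 0.355, interval 0.268 to 0.464), and in 5.42% of all CpG-rich promoters. TGACGTCA, a cAMP response element (CRE), was found in 2.37% and 4.05% (odds ratio 0.575, interval 0.429 to 0.758), with 3.61% of all CpG-rich promoters. GCATGCGC, part of the NRF1 site, was found in 4.34% and 6.599% (odds ratio 0.642, interval 0.517 to 0.791), with 5.93% of all CpG-rich promoters. AGCCAAT, the NF-Y box, was found in 8.72% and 10.3% (odds ratio 0.829, interval 0.709 to 0.966), with 9.82% of all CpG-rich promoters. These 5 motifs are common in promoters of genes that are active in most cells. All were rarer at genes with a gene-start peak than at genes without an EZH2 peak.

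Of the other motifs, 4 were more frequent than at genes without an EZH2 peak. CACCTG, an E-box that SNAI and ZEB factors bind, was found in 20.5% and 17.2% (odds ratio 1.25, interval 1.11 to 1.392), with 18.1% of all CpG-rich promoters. GGGCGG, a GC box, was found in 81.1% and 78.6% (odds ratio 1.17, interval 1.05 to 1.31), with 79.4% of all CpG-rich promoters. GAGAGAGA was found in 3.71% and 2.43% (odds ratio 1.55, interval 1.20 to 1.98), with 2.76% of all CpG-rich promoters. TTCAGCACC, the left part of the RE1 element of REST, a repressor of neuronal genes, was found in only 18 and 21 promoters (0.710% and 0.206%, odds ratio 3.46, interval 1.74 to 6.83), with 0.356% of all CpG-rich promoters. Its interval included 1 under 3 other settings, a −log10 q of at least 5, a peak within 1000 bp of the start used, and a window of 500 bp on each side. TGACTCA, an AP-1 site, and CAGCTG, another E-box, had intervals that included 1 (odds ratios 0.884 and 1.063), with 1.93% and 15.7% of all CpG-rich promoters. Genes with a wide peak and no gene-start peak had still fewer ETS sites (4.20% of 690 promoters, odds ratio 2.44 for gene-start peaks, interval 1.64 to 3.75) and NRF1 sites (1.74%, odds ratio 2.56, interval 1.398 to 5.14). Those 690 promoters held CACCTG in 23.6%, the GC box in 85.4%, GAGAGAGA in 4.49% and the RE1 part in 1.01%. All 4 shares were higher than at genes with a gene-start peak. Only the GC box interval left out 1 (odds ratio 0.738 for gene-start peaks, interval 0.578 to 0.935). Promoters of genes that share a promoter region were counted for each gene.

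**Figure D5:**
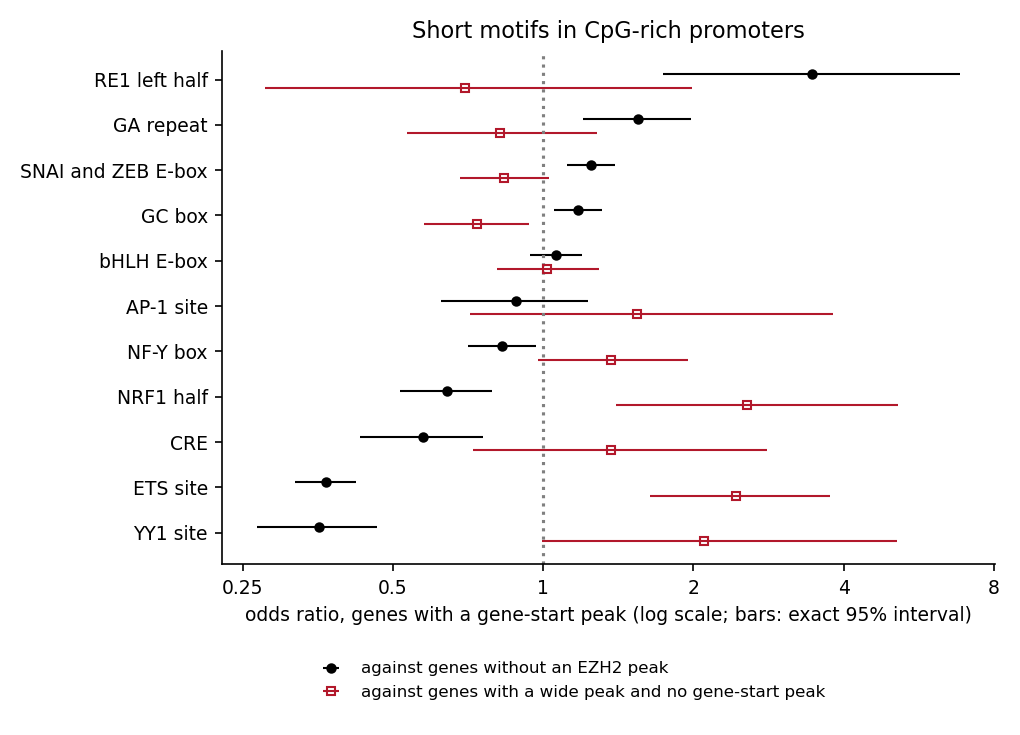
Odds ratio (log scale) of 11 short motifs in CpG-rich promoters of genes with a gene-start peak, against genes without an EZH2 peak (black points) and against genes with a wide peak and no gene-start peak (red squares), with exact 95% intervals. The ETS, YY1, CRE and NRF1 motifs lie left of 1 against genes without EZH2, and the RE1 part and the GA repeat lie to the right.

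Chromosomes differed mainly in the CpG-poor peaks. Leaving out Y, which had 9 gene-start peaks, the 23 other chromosomes had 2.18 to 3.88 CpG-rich peaks per Mb within 5 kb of a TSS, lowest on chromosome 12 and highest on chromosome 20. CpG-poor peaks ran from 2.05 per Mb on chromosome 4 to 7.95 per Mb on chromosome 11, a 3.89-fold range against 1.79-fold for the CpG-rich peaks. Chromosome 11 also had the highest median background of its gene-start peaks (9.53 fragments) and the lowest median fold enrichment (2.78), and chromosome 13 had the lowest background (5.92) and the highest fold enrichment (3.38). PANC-1 cells carry an abnormal number of many chromosomes, and the part of chromosome copy number in these densities was not tested.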

How the data were processed

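ChIP-seq of EZH2 and PHF13 and an input library were made from PANC-1 cells. According to the methods and the labels, the authors trimmed reads with Trim Galore 0.4.1, aligned them to hg19 with Bowtie2 2.4.1, dropped duplicate reads (Picard) and used MACS2 2.2.7.1 with the input as control. The deposited peak lists give fold enrichment (a ratio at the summit), p-value and q-value as −log10, and a score. The methods describe broad peaks for EZH2, but the deposited EZH2 list is in narrow-peak format, and its weakest −log10 q is 1.31; it was used as deposited. The total depth is not known from the lists.

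The gene-start peaks and all lists and motifs were chosen with earlier results of these data known. Fold enrichment and p were solved for a whole number of fragments and a local background; 100% of the peaks gave a solution within a relative error of 0.0001. Starts came from GENCODE release 44 on GRCh37; 1 start per gene was the MANE Select, else the canonical, else the longest transcript. The 24-mer count covered both strands. Named genes were the 10 single-copy peaks highest in fold enrichment and the 10 highest in q at protein-coding genes, the 5 genes with most peaks, up to 3 genes per list by q, the 3 peaks nearest each limit, and genes the study discusses; sequences overlapping an annotated UTR were not printed, and a few genes that the rule names are not reported here. Shares have 95% Wilson intervals and odds ratios exact conditional intervals (scipy 1.17.1, Python 3.11.15); the calculations were tested on simulated data. Alternatives were a −log10 q of at least 5, other widths, distances, windows and start sets, and single-copy peaks.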

Additional observations from a re-analysis of the deposited data

How the results depend on the processing

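The share of the EZH2 list that passed the selection was 35.5%. It was 33.9% at a −log10 q of at least 5, 30.7% with a width limit of 500 bp, 34.0% when a PHF13 peak within 1000 bp counted as shared, 18.1% within 1000 bp of a TSS and 22.3% with protein-coding TSSs only. The share within 1 kb of a TSS (51.1%) was 65.2% at a −log10 q of at least 5, 57.5% with protein-coding TSSs only (28.4% of that territory) and 57.2% in single-copy sequence. The share within 5 kb of a wide peak (6.32%) was 7.11% at a −log10 q of at least 5, 5.79% within 2000 bp and 13.7% with a width limit of 500 bp. Genes with a gene-start peak (3759) numbered 1604 at a −log10 q of at least 5, 2202 within 1000 bp, 3226 in single-copy sequence and 2793 with 1 start per gene.

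The odds ratio for PHF13 at these genes against genes without an EZH2 peak is a description only, since the selection left out EZH2 peaks sharing a base with PHF13. It was 1.10 and turned to 0.999 at a −log10 q of at least 5, 0.774 within 1000 bp, 0.935 for CpG-rich promoters, 0.701 with 1 start per gene and 0.971 in single-copy sequence of both lists. It was 1.76 for other promoters, 1.44 for these in single-copy sequence and 1.46 with 1 start per gene; the settings with copy number, or with other promoters and 1 start per gene, were added after the data were seen. The cause of these turns was not tested. The odds ratio for CpG-rich sequence against peaks farther from a TSS stayed between 6.92 and 14.3, and that for multi-copy sequence between 0.0570 and 0.165. Motifs whose interval left out 1 numbered 9, and 8 under each of 3 alternatives; with 500 bp on each side of the start the GC box (1.07) no longer did and the AP-1 site (0.779) did. Of 25 gene lists, 24 kept their side of the share over all genes with 1 start per gene, 23 at a −log10 q of at least 5 and 25 in single-copy sequence; the keratins changed side under the first and second of these and the clustered protocadherins under the second. No paired analysis was possible because there was 1 library per antibody, and leaving out a replicate was likewise not possible. The CpG-poor peaks rested on a median of 23 fragments and the CpG-rich peaks on 32; the effect of depth was not tested.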
